A study of Mus musculus with 12 samples.

Results

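Small nucleolar RNAs (snoRNAs) were examined in liver total RNA of germ-free mice. Members were the rows of the deposited gene table whose symbol starts with Snora or Snord followed by a number, in any case, and whose counts over the 12 libraries summed to 100 or more. This gave 257 members among 38087 rows, 138 of the H/ACA class (Snora symbols) and 119 of the C/D class (Snord symbols), while 1184 rows with such symbols fell below 100 counts. Members were thus chosen by their total count over both groups, and their levels are given as a description with no test. At the threshold stood SNORA36 in Dkc1 and SNORA5 in Eif2ak3, with 100 counts each, SNORD88 with 101 and SNORD5 with 106, and just below it SNORA76 in Gpr107 with 98, SNORA74 with 97, SNORD105 in Ppan with 94 and SNORD56 in Nop56 with 92.

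The livers came from male C57BL/6j mice that were 13 to 16 weeks old and sampled at zeitgeber time 2. All were germ-free, that is raised without a gut microbiota. The 6 libraries of one group were from mice that had received rat ghrelin, a stomach hormone that stimulates appetite and growth hormone release, by daily subcutaneous injection of 10 µg per mouse over 5 days, and the 6 of the other from mice given phosphate-buffered saline (PBS) on the same schedule. No label says whether animals were housed or handled in batches. Libraries held 15775059 to 21457627 counts in the ghrelin group and 18746597 to 22302533 in the PBS group. Hepatocyte markers such as Alb and Apoa1 were abundant in both, with 8 markers summing to 86910 to 103700 CPM, that is counts scaled to a common library size, in ghrelin livers and 91470 to 125200 CPM in PBS livers.

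SnoRNAs are short nuclear RNAs that guide chemical changes in other RNAs, mainly ribosomal RNA, by base pairing with the target. C/D snoRNAs carry a box C near the 5′ end and a box D near the 3′ end, bind fibrillarin, Nop56, Nop58 and the Snu13 protein (Nhp2l1 in this table), and guide methylation of the ribose. H/ACA snoRNAs fold into hairpins joined by box H and followed by box ACA, bind dyskerin (Dkc1), Nhp2, Nop10 and Gar1, and guide the conversion of uridine to pseudouridine. In mammals most are cut out of the introns of host genes, many of which encode ribosomal proteins or translation factors, and a few have promoters of their own or act in the cleavage of the ribosomal RNA precursor.

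The members were matched by gene identifier to GENCODE M21 on mm10, the build that the submitters' processing notes name, and 255 of 257 had an entry there. Symbols in capitals are family names that several loci share, so the GENCODE name follows in brackets where it differs. Sequences are GENCODE transcripts, written 5′ to 3′. The sets below are shown because the results return to them. The first is the U17 RNAs Snora73a and Snora73b, H/ACA snoRNAs that take part in cleavage of the ribosomal RNA precursor, with their relative SNORA73 (Gm26448). They lie at chr4:132352775-132352979 and chr4:132352322-132352526 on the minus strand, in introns of Rcc1 and within Snhg3, and at chr9:120129351-120129553 on the plus strand in an intron of Rpsa. Capitals mark a box H candidate (ANANNA) and the terminal ACA, which lies 3 bases from the end.
Snora73a: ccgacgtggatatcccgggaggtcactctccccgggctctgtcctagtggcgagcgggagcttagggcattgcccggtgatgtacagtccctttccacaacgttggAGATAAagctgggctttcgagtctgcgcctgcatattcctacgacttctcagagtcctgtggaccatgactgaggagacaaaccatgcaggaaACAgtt
Snora73b: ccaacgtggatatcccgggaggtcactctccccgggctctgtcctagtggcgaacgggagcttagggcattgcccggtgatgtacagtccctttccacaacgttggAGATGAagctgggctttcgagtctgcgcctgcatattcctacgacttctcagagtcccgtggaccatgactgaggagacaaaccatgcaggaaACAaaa
SNORA73 (Gm26448): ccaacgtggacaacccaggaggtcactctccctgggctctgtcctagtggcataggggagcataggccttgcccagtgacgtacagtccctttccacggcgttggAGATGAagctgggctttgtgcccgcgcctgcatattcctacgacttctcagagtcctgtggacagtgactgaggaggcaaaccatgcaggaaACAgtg
Snora73a and Snora73b differed at 7 bases over 205 (96.6% identity), and SNORA73 (Gm26448) differed from Snora73a at 24 bases (88.3%), so reads could be split between the first pair by the authors' alignment.

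The second set is the U14 RNAs, C/D snoRNAs needed for processing of the small-subunit ribosomal RNA, in introns of Hspa8, which encodes a heat shock cognate chaperone. They lie on the plus strand at chr9:40803583-40803668, chr9:40803995-40804080 and chr9:40804748-40804837. Capitals mark the core of box C (TGATGA) and box D (CTGA).
SNORD14 (Snord14c): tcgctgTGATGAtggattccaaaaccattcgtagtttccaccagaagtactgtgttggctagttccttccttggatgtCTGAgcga
SNORD14 (Snord14d): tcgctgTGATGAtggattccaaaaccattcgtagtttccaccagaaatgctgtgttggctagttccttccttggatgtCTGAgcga
Snord14e: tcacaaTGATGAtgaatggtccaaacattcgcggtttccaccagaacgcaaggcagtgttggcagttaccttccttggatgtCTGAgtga
Snord14c and Snord14d differed at 2 bases (97.7% identity), and both differed from Snord14e at 19 bases.

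The third set holds the member with the smallest p between the groups, Snord118 (U8), a C/D snoRNA that acts in processing of the large-subunit ribosomal RNAs, at chr11:69073427-69073561 on the plus strand, and 2 members of the long non-coding host Gas5 with the highest and the lowest level there, at chr1:161036057-161036139 and chr1:161035394-161035473. In Snord118 the TGATGA core did not occur within the first 25 bases searched, so only CTGA is in capitals.
Snord118: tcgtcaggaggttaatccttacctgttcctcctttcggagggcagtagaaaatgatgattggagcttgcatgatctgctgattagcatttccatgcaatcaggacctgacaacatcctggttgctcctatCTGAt
SNORD24 (Gm22357): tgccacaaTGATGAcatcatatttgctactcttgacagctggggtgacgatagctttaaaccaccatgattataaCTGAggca
SNORD74 (Gm26224): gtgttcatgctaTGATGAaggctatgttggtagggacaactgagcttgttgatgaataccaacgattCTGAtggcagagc

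The classes differed in length and in the letters at their ends. H/ACA members had a median length of 133 nt (100 to 246) and C/D members one of 76 nt (60 to 238). A sequencing read of 125 bases, as the labels give it, was longer than 14 of 137 H/ACA members and 110 of 118 C/D members with a known length. TGATGA, searched on the RNA strand only within the first 25 bases, was present in 81 of 118 C/D members (68.6%), and CTGA, within the last 15 bases, in 108 (91.5%). In H/ACA members these were found in 2 and 4 of 137. ANANNA outside the 45 bases at each end was found in 124 of 137 H/ACA members (90.5%), and ACA exactly 3 bases from the end in 102 (74.5%). Of the 899 H/ACA rows below 100 counts with a sequence, 16.9% ended in ACA in that position, whereas the C/D rows below 100 counts carried TGATGA in 81.2% and CTGA in 92.0%. The share with the terminal box was thus higher above the count threshold among H/ACA rows and not among C/D rows. Few families made up most of the low rows. SNORA17 held 604 of the 903 low H/ACA rows, and SNORD115 and SNORD116 held 137 and 71 of the 281 low C/D rows. The shares of low rows rest largely on these families and were not computed without them.

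Nearly all members lay within another gene on the same strand: 133 of 137 matched H/ACA members (97.1%) and 115 of 118 C/D members (97.5%). Among rows below 100 counts, 129 of 899 H/ACA rows (14.4%) and 246 of 276 C/D rows (89.1%) did. Members and low rows thus differed in this mainly in the H/ACA class, where 604 of 903 low rows were SNORA17 copies. The low C/D share likewise rests largely on SNORD115 and SNORD116 rows. The 248 hosted members lay in 153 host genes, and where several genes hold one member the gene with the most counts was taken. Snord68 was thereby placed in Gm20388, a long readthrough gene that spans Rpl13. Of all members, 141 lay in introns, 78 in introns that some annotated transcript retains, and 29 in annotated exons. The C/D members outside any gene on their strand were Snord118, Snord104 and Snord13, the last known as U13, and the H/ACA members were SNORA57 (Snora57), SNORA70 (Gm25979), SNORA48 (Gm24130) and SNORA17 (Gm23340).

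Within introns the classes lay at different distances from the next exon of the host, which marks the 3′ splice site. C/D members ended a median of 87 nt before the next exon (quartiles 71 and 286, n = 100), and 58 of them (58.0%) lay within 60 to 100 nt. H/ACA members ended a median of 638 nt before it (quartiles 169.5 and 2654, n = 119), and 19 (15.97%) lay within that window. C/D rows below 100 counts had a median of 3718 nt, with 5 of 105 (4.76%) in the window. The C/D members of detectable level thus gathered at one distance, shown in the histogram of distances, and H/ACA members were spread widely. C/D members within the window had a median level of 115.7 CPM per kilobase (kb) of their length (quartiles 14.42 and 224.7). Intronic C/D members at other distances had a median of 21.55 CPM per kb (quartiles 11.53 and 223.3), so the levels overlapped widely. H/ACA medians were 42.93 CPM per kb within the window (quartiles 10.79 and 117.2) and 14.05 at other distances (5.82 and 61.31).

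**Figure D1:**
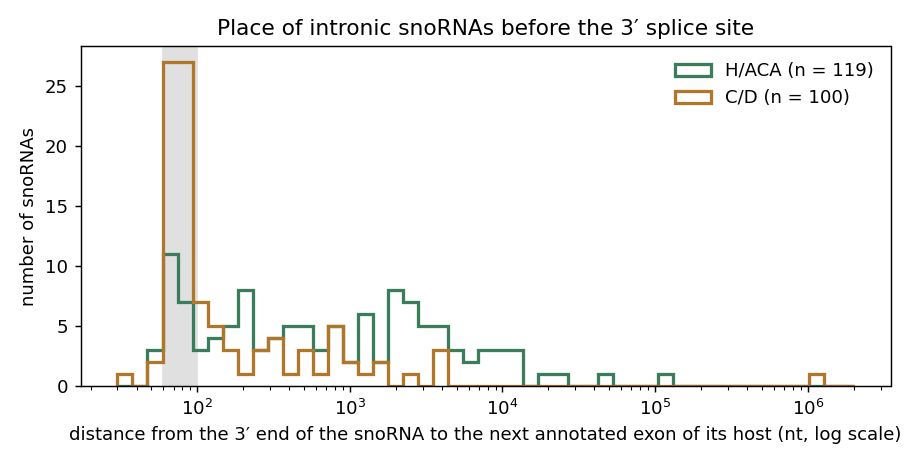
Number of intronic members (vertical axis) by the distance in nt from the 3′ end of the snoRNA to the next annotated exon of its host (horizontal axis, log scale), for both classes; the grey band marks 60 to 100 nt. C/D members peak in the band, where 58 of 100 lie, and H/ACA members are spread over a wide range, with 19 of 119 in the band; the single C/D member at the far right is Snord68, placed in the long gene Gm20388.

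Together the members held little of each library. H/ACA members made up 0.105% of all counts and C/D members 0.117%. Per kb of length, the median level was 14.6 CPM per kb in H/ACA members (3.10 to 531.8) and 43.3 CPM per kb in C/D members (4.14 to 751.5). The H/ACA median over the C/D median was 0.358 per kb and 0.524 without division by length. It was thus lower either way, but the size of the gap depends on the division. Most C/D members were shorter than a read, and whether counts scale with length in such members was not tested. Levels and ranks per kb below rest on this division. The counts were concentrated in few members, since 12 H/ACA members and 20 C/D members held 50% of their class. The 10 most counted took 45.8% of the H/ACA counts and 33.0% of the C/D counts.

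The H/ACA member with the highest level was SNORA48 (Gm22988), in the translation initiation factor gene Eif4a1, at 531.8 ± 45.3 CPM per kb (SD, n = 12). Snora73a followed at 422.5 ± 65.6, Snora31, in the gene of the tumour protein Tpt1, at 385.6 ± 35.1, and Snora74a at 296.7 ± 36.4 CPM per kb. The ranges of mean and SD overlapped for Snora73a and Snora31, and also for Snora74a and Snora73b, the last at 273.0 ± 39.8 CPM per kb. Such pairs were measured in the same libraries, and their differences within libraries were not tested. The highest C/D levels were those of both SNORD59 loci in Atp5b, which encodes a subunit of mitochondrial ATP synthase, at 751.5 ± 61.8 (Mir677) and 643.3 ± 56.4 (Snord59a) CPM per kb. SNORD14 (Snord14d) at 535.8 ± 85.4 and Snord37, in the elongation factor gene Eef2, at 530.0 ± 68.5 CPM per kb came next and overlapped.

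Members in ribosomal protein genes stood high as a group. The 20 H/ACA members there had a median of 105.5 CPM per kb, against 12.25 in the 99 members of other protein-coding genes and 9.66 in the 14 of other hosts. For C/D members the medians were 231.2 (n = 32), 17.76 (n = 54) and 13.91 CPM per kb (n = 29). The 4 C/D members of Rpl13a, Snord32a, Snord33, Snord34 and Snord35a, which studies in rodents link to metabolic stress, lay close together at 254.8 to 314.0 CPM per kb. In contrast, Snord118, with no host, had 22.8 ± 7.21 and Snord13, known for its part in acetylation of small-subunit ribosomal RNA, 9.55 ± 4.45 CPM per kb.

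**Figure D2:**
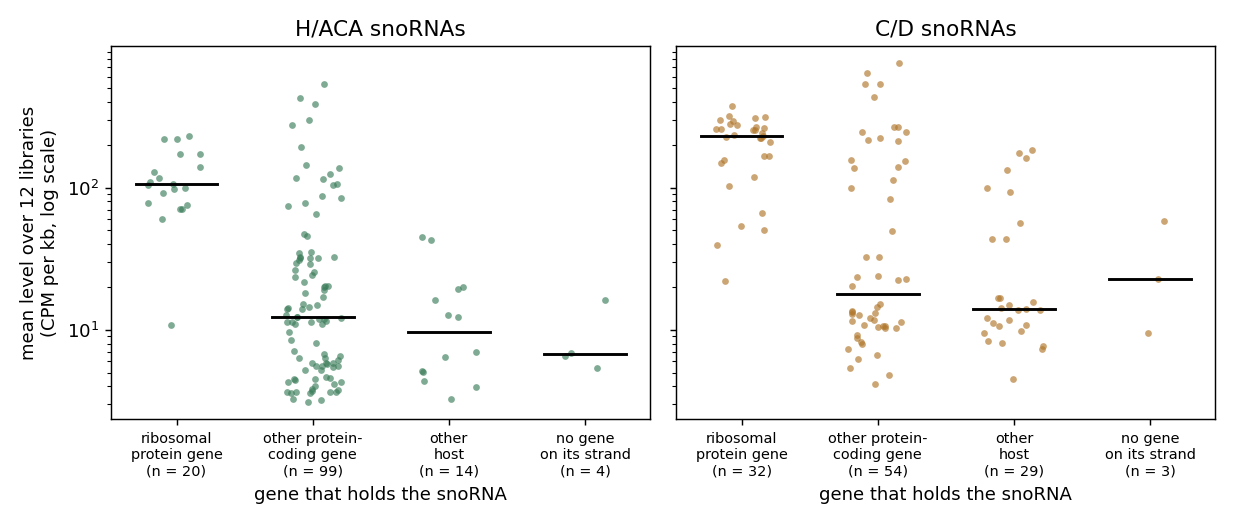
Mean level of each member over the 12 libraries (vertical axis, CPM per kb, log scale) by the kind of gene that holds it, H/ACA on the left and C/D on the right; each point is a member and each black line a median. Members in ribosomal protein genes have medians of 105.5 (H/ACA) and 231.2 CPM per kb (C/D), above those of the other kinds of host.

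Across members, the level followed that of the host. Spearman's rho between the level per kb of a member and that of its host per kb of exon was 0.74 over 121 H/ACA pairs and 0.91 over 102 C/D pairs; members of one host share its value, and all points share the libraries. With members that overlap no annotated exon or retained intron of the host, rho was 0.74 (n = 81) and 0.90 (n = 48). The labels do not say how a read in both was counted, and reads of unspliced host RNA cannot be told apart from those of the snoRNA. The same order held over libraries: the median Pearson correlation between a member and its own host over the 12 libraries was 0.36 for H/ACA and 0.62 for C/D members, beside 0.02 and 0.16 with the hosts of other members. These are descriptions and carry no test.

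**Figure D3:**
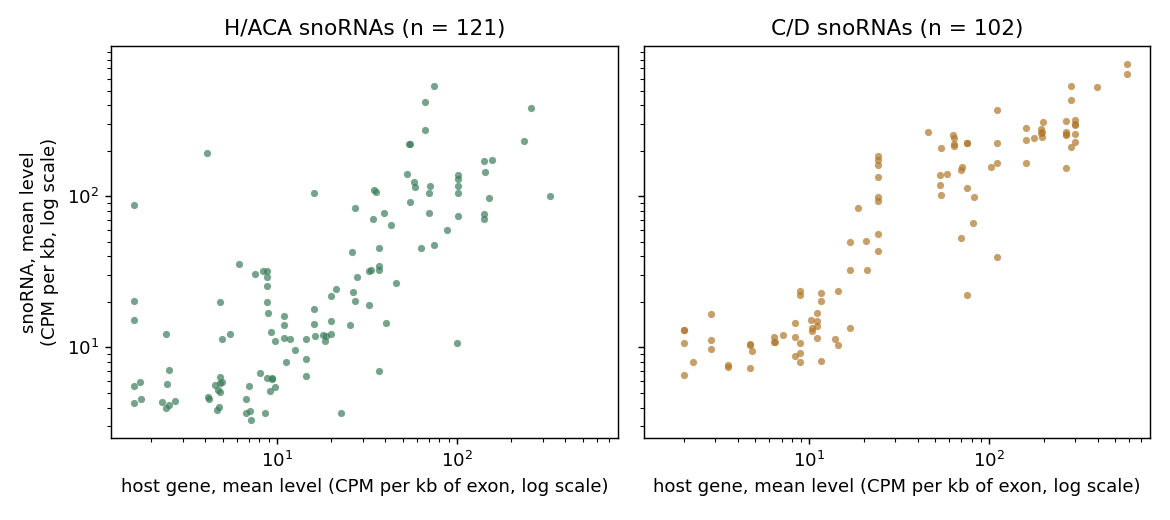
Mean level of each tested member (vertical axis, CPM per kb, log scale) against that of its host gene (horizontal axis, CPM per kb of exon, log scale), over 121 H/ACA and 102 C/D members. Points rise together, more tightly for C/D (rho 0.91) than for H/ACA members (rho 0.74).

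A host did not fix the level of every snoRNA it holds. In the 48 hosts with several members, which hold 143 of them, the highest level was a median of 1.99 times the lowest. The widest gap, 20.3-fold, was in Taf1d, a gene for an RNA polymerase I initiation factor, between SNORA32 (Gm23455) at 87.2 ± 17.9 and SNORA1 (Gm22620) at 4.30 ± 1.52 CPM per kb. SNORA32 lies in an annotated exon and SNORA1 in a retained intron. In Eif4a1, SNORA48 (Gm22988) stood 11.25-fold above SNORA67 (Gm24029). Rpl4 had its 5 C/D members between 228.5 and 320.4 CPM per kb (1.40-fold apart). The 8 C/D members of Gas5 ran from 43.2 ± 8.91 CPM per kb in SNORD74 (Gm26224) to 184.7 ± 11.9 in SNORD24 (Gm22357), the pair printed above. SNORD74 also lay 278 nt before its next exon, whereas the other Gas5 members lay 65 to 78 nt before theirs. Of the U14 copies in Hspa8, Snord14d had 535.8 ± 85.4 CPM per kb, Snord14e 433.6 ± 79.5 and Snord14c 212.0 ± 41.6. Snord14c and Snord14d differ by 2 bases only, so their ratio rests on how reads shared between them were assigned.

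Copies shape much of the H/ACA class. A near copy, another row of the name pattern with 90% identity or more, existed for 56 H/ACA and 10 C/D members, and the split of counts between such rows is uncertain. The SNORA17 family had 614 rows, of which 10 were members and 604 summed to 879 counts in all 12 libraries. SNORA70 had 43 rows with 9 members and SNORA48 30 rows with 5. Among C/D families, the 137 SNORD115 and 71 SNORD116 rows, from the imprinted Prader-Willi region and known mainly from brain, had 0 counts in every library. If reads with several matches were counted, this allows at most 3 counts in 236977278, or 0.0127 CPM, for each row; if they were discarded, no limit follows for these near-identical copies.

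Ghrelin was then set against PBS. No snoRNA passed the test: with edgeR's quasi-likelihood test and Benjamini-Hochberg adjustment over 14170 genes, 0 of 130 tested H/ACA and 0 of 114 tested C/D members had an adjusted p under 0.05, beside 15 genes (0.106%) of the whole table, 0.0423% of all genes being called as higher and 0.0635% as lower in ghrelin livers. The other 13 members were too low to be tested. At an unadjusted p under 0.05 there were 18 H/ACA members (13.85%, 14 higher and 4 lower in ghrelin livers) and 11 C/D members (9.65%, 9 higher and 2 lower), against 13.4% of all genes, of which 6.44% were higher and 6.94% lower. Groups overlapped for every tested member. They did not for 0.826% of all genes, a share so small that 0 among 244 tested members lies near it. DESeq2 called 0 of the 130 H/ACA members and 1 of the 114 C/D members, Snord118, beside 202 of all 14170 genes.

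Fold changes were small and more often above than below 0. The log2 fold change, ghrelin over PBS, was positive for 91 of 130 H/ACA members (70.0%) and 70 of 114 C/D members (61.4%), against 50.01% of all genes. Its median was 0.08 in H/ACA and 0.03 in C/D members, beside 3.19e-05 for all genes, and the C/D median turned to -0.0088 without ghrelin 1 and to -0.0022 without ghrelin 3. The H/ACA median stayed between 0.06 and 0.10 when any library was left out. Among members with a mean of 10 CPM or more, 23 of 31 H/ACA and 37 of 46 C/D members were positive, with medians of 0.07 and 0.06. The typical standard error was 0.17 in H/ACA and 0.14 in C/D members, so for most of them a change of the size of these medians was not detectable. Members share hosts and libraries, and their shared direction was not tested.

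**Figure D4:**
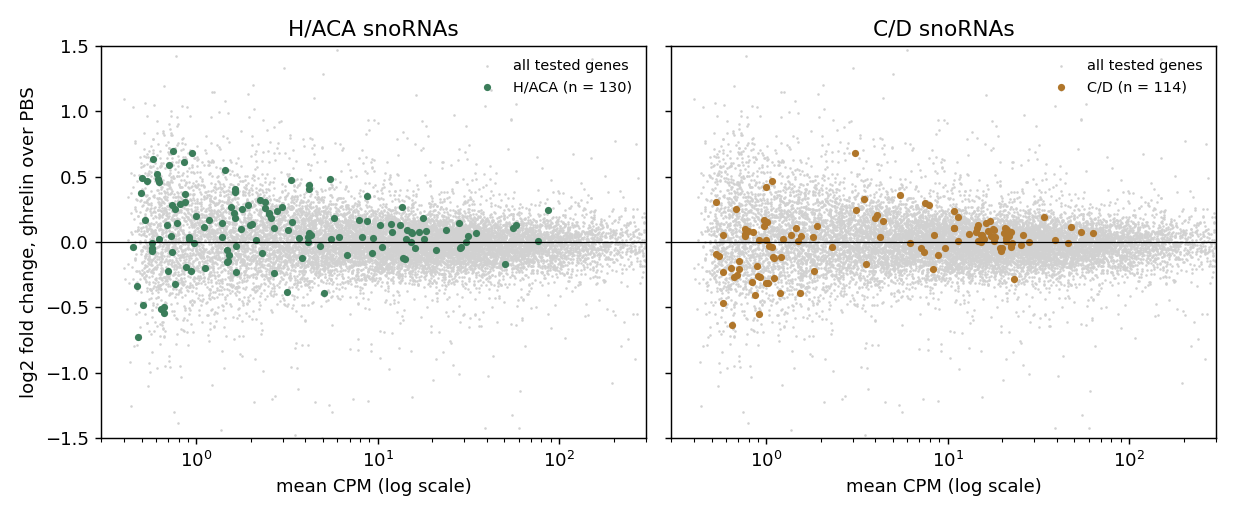
Log2 fold change, ghrelin over PBS (vertical axis), against mean CPM (horizontal axis, log scale) for tested H/ACA (n = 130, left) and C/D members (n = 114, right), over all tested genes in grey; grey points beyond the axes are not drawn. Members sit within the cloud of all genes, with medians of 0.08 (H/ACA) and 0.03 (C/D).

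Summed over a class, the libraries overlapped. H/ACA members summed to 942.6, 1087 and 1150 CPM (lowest, median, highest) in ghrelin livers and to 971.4, 1041 and 1053 CPM in PBS livers. C/D members summed to 1068, 1164 and 1340 CPM in ghrelin livers and to 1093, 1156 and 1201 CPM in PBS livers. The ghrelin livers spread more widely than the PBS livers, with an SD of 77.4 against 36.3 CPM for H/ACA and of 100.4 against 35.9 CPM for C/D members, and held both the highest and the lowest library of each class. In ghrelin 3, 98 of 130 H/ACA and 91 of 114 C/D members lay above their own mean, and in ghrelin 4 only 39 and 27 did. Ghrelin 5 stood apart in another way. Its 15 members of 150 nt or longer, a length limit chosen after the values were seen, summed to 513.7 CPM, where the other ghrelin livers had 352.8 to 436.2 and the PBS livers 369.6 to 426.1 CPM. Its shorter members summed to 1711 CPM, inside the range of the other libraries. Of the long members, the 13 H/ACA ones had 408.2 CPM in ghrelin 5, with ghrelin 1 next at 350.3. The 2 C/D ones had 105.5 CPM, close to PBS 4 at 102.6. A list of other small RNAs was also highest in ghrelin 5 (188.4 CPM, next ghrelin 3 at 154.2). Its counts came mainly from the Cajal body RNAs Scarna2, Scarna10, Scarna13 and Scarna6, with Rnu73b and Snord118, itself a member. Cajal body RNAs carry the boxes of snoRNAs, so whether the pattern went beyond such RNAs was not tested.

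Snora73a belongs to the members of 150 nt or longer, so its values are part of their sum and no separate observation. It had 73.9, 92.4 and 119 CPM (lowest, median, highest) in ghrelin livers and 71.1, 81.4 and 87.0 CPM in PBS livers. Ghrelin 5 was highest, and all PBS livers lay within the ghrelin range except PBS 3 and PBS 6, which lay below it. The log2 fold change was 0.25 (SE 0.09, edgeR's adjusted p = 0.290), and Rcc1 and Snhg3, which both hold it, each had 0.19 (SE 0.10). Rcc1 had 164.3 ± 27.5 CPM in ghrelin livers and 144.3 ± 9.65 in PBS livers, and Snhg3 159.7 ± 27.4 and 139.7 ± 9.75 CPM. The values of these overlapping genes were nearly the same, so they are not separate observations. Snora73a and Snora73b averaged 86.6 and 56.0 CPM, Rcc1 154.3 and Snhg3 149.7 CPM, and whether snoRNA reads were also counted for these genes was not tested. Snora31 went the other way, with 39.9, 47.6 and 53.6 CPM in ghrelin livers and 51.4, 53.1 and 54.8 CPM in PBS livers. Its groups overlapped, and the log2 fold change was -0.16 (SE 0.07, adjusted p = 0.302).

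The smallest p belonged to Snord118 (U8). It had 2.78, 3.92 and 4.52 CPM in ghrelin livers and 1.48, 2.49 and 3.07 CPM in PBS livers. Only ghrelin 4 lay inside the PBS range, below PBS 2 and PBS 4. The log2 fold change was 0.68 (SE 0.18, unadjusted p = 0.0020, adjusted p = 0.162), the largest of the C/D members. DESeq2's Wald test gave an adjusted p of 0.029, and the other alternatives gave 0.087 to 0.292.

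**Figure D5:**
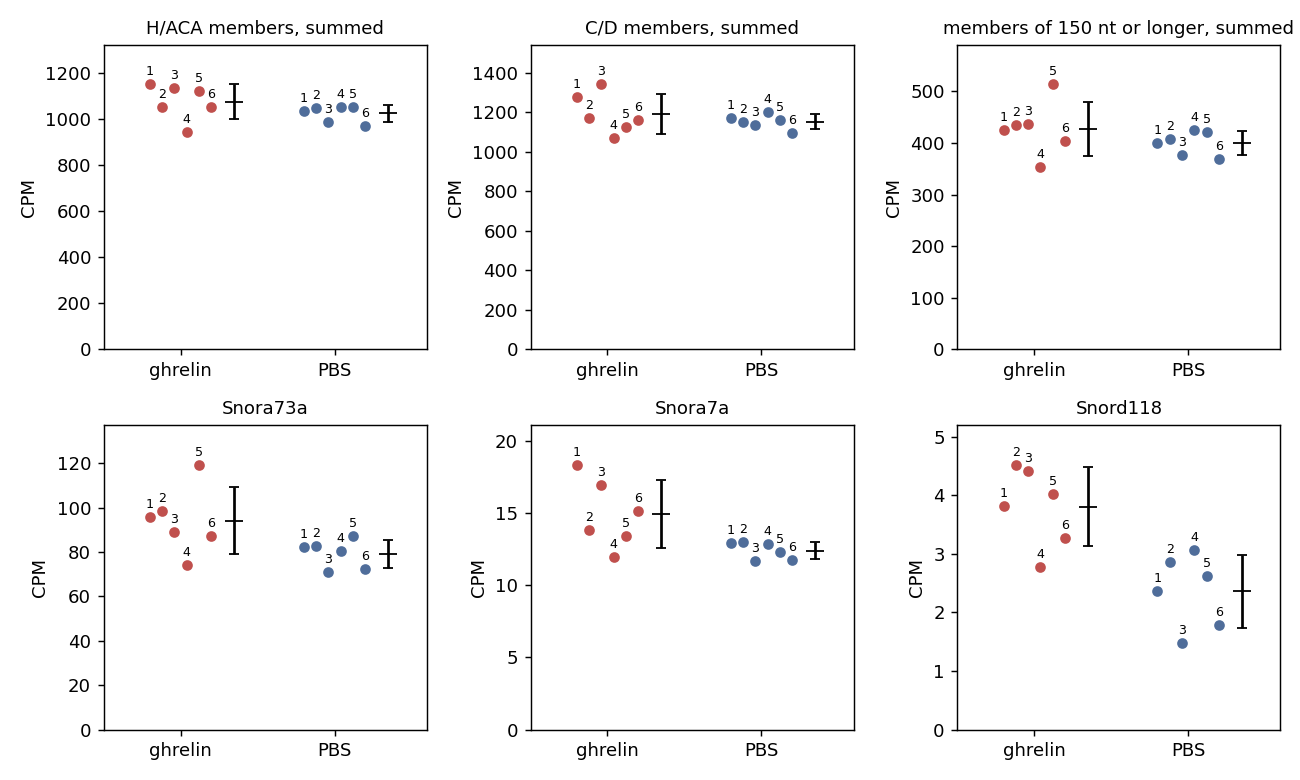
CPM in each library (points, numbered by replicate) in ghrelin livers, left in each panel, and PBS livers, right, with the mean and SD in black (n = 6 each); panels show both class sums, the members of 150 nt or longer, Snora73a, Snora7a and Snord118. Groups overlap in every panel. Ghrelin 5 is highest for the long members (513.7 CPM) and for Snora73a (119 CPM), which is part of that sum.

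Other members with small unadjusted p values had overlapping groups as well. SNORA32 (Gm23455), of Taf1d, had 6.97, 9.81 and 12.8 CPM in ghrelin livers and 6.80, 7.61 and 8.46 CPM in PBS livers (log2 fold change 0.35, SE 0.12, adjusted p = 0.252). Snora7a, in an annotated exon of the ribosomal protein gene Rpl32, had 12.0, 14.5 and 18.3 CPM in ghrelin livers and 11.6, 12.6 and 13.0 CPM in PBS livers (0.27, SE 0.10, adjusted p = 0.263). SNORD101 (Gm23130), in Rps12, had 6.63, 8.29 and 10.6 CPM in ghrelin livers and 6.34, 6.68 and 7.32 CPM in PBS livers (0.30, SE 0.11, adjusted p = 0.267). In each of these the highest libraries were ghrelin livers and the lowest were PBS livers. Snord22 (U22) lies in a stretch of Snhg1 that some annotated transcript counts as exon, and in Xenopus it acts in small-subunit ribosomal RNA processing. It had 5.02, 6.03 and 8.16 CPM in ghrelin livers and 3.92, 4.96 and 5.35 CPM in PBS livers (0.36, SE 0.13, edgeR's adjusted p = 0.265). The 6 C/D members placed in retained introns of Snhg1 had log2 fold changes of -0.31 to -0.03 with SEs of 0.24 to 0.33. Their sign differed from that of Snord22, a single member, and none was called.

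Among the 8 most counted members of each class, the log2 fold change was at most 0.19 in size in those other than Snora73a. Snord37 had 28.7, 37.1 and 41.2 CPM in ghrelin livers and 29.3, 30.9 and 35.8 CPM in PBS livers (0.19, SE 0.09, edgeR's unadjusted p = 0.042 and adjusted p = 0.3565), with overlapping groups. SNORA48 (Gm22988) had 76.7 ± 6.94 CPM in ghrelin livers and 76.4 ± 6.73 in PBS livers, a log2 fold change of 0.00 (SE 0.07). The SNORD59 loci had 55.6 ± 4.74 CPM (Mir677) and 49.5 ± 3.66 (Snord59a) in ghrelin livers and 52.6 ± 3.96 and 45.7 ± 3.99 CPM in PBS livers. Snord14d had 46.0 ± 6.65 CPM in ghrelin livers and 46.2 ± 8.63 in PBS livers, and Snord14e 39.3 ± 7.13 and 38.8 ± 7.85. The largest folds were those of low members: SNORA2 (Gm22806, in Cks2) had 0.70 (SE 0.28) at 0.916 ± 0.298 CPM in ghrelin livers and 0.566 ± 0.200 in PBS livers, and SNORA79 (Gm24241, in Nedd1) had -0.73 (SE 0.31) at 0.355 ± 0.153 and 0.599 ± 0.194 CPM (SD, n = 6 each throughout). Neither passed the test (edgeR's adjusted p = 0.299 and 0.331).

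The hosts themselves had no call among 147 tested; 54 had values above 0 and 93 below it, and their median was -0.03. Over members, the fold change correlated with that of the host with r = 0.44 (121 H/ACA pairs) and 0.54 (102 C/D pairs), without a test, but member and host had the same sign in only 65 of 121 and 56 of 102 pairs. Fold changes of a member and its host lay within 2 SE of each other in 112 of 121 H/ACA and 99 of 102 C/D pairs, a loose measure given the members' SEs. In 3 hosts picked after their values were seen, the members had negative values, as had the host: the 4 in Nop58 (-0.47 to -0.11, host -0.29), the 4 in Nop56 (-0.26 to -0.09, host -0.16) and the 3 in Gnl3, nucleostemin (-0.64 to -0.22, host -0.14). This was not so in the nucleolin gene Ncl (-0.24 to 0.13, host -0.09) or in Wdr43 (-0.55 to 0.02, host -0.17). None of these members or hosts was called.

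The proteins that snoRNAs work with were given by lists chosen with earlier results of these data known. None of the lists held a called gene. All 4 measured box C/D core proteins were lower in value, with a median log2 fold change of -0.15: Nop58 had 17.2 ± 3.44 CPM in ghrelin livers and 21.1 ± 3.46 in PBS livers (-0.29, SE 0.13), and fibrillarin (Fbl) 7.78 ± 1.04 and 8.24 ± 0.27 CPM. The 4 H/ACA core proteins were split, 2 above and 2 below 0, with Dkc1 at 13.6 ± 2.69 CPM in ghrelin livers and 14.98 ± 1.85 in PBS livers. Among 13 assembly factors 6 were positive and 7 negative. Nufip1, which helps to assemble C/D particles, had 7.46 ± 1.10 CPM in ghrelin livers and 10.1 ± 0.91 in PBS livers (-0.44, SE 0.10, edgeR's adjusted p = 0.124). Its groups did not overlap, nor did those of Naf1, beside 0.826% of all genes without overlap. Of 12 measured genes for snoRNA end processing 10 were negative, and of 30 genes for ribosome biogenesis 24 were, with a median of -0.06. Of all genes, 50.01% were positive. In edgeR's test 16.67% of the end processing genes and 6.67% of the ribosome biogenesis genes had an unadjusted p under 0.05, beside 13.4% of all genes. The shared direction within these lists was not tested. Of 9 tested genes of other small nuclear RNAs, Snord118 among them, 7 were positive; the Cajal body RNA Scarna2 had 56.6 ± 9.22 CPM in ghrelin livers and 43.8 ± 6.34 in PBS livers (0.37, SE 0.11, adjusted p = 0.199).

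None of the marker lists held a called gene. Of 8 hepatocyte markers, 4 had log2 fold changes above 0 and 4 below it, with a median of -0.08. Tat (-0.63), Cps1 (-0.19) and Cyp2e1 (-0.22) had an unadjusted p under 0.05 in edgeR's test, 37.5% of the list beside 13.4% of all genes. Cps1 had no overlap between the groups, as had 0.826% of all genes. Kupffer cell, endothelial, stellate cell, bile duct, lymphocyte and erythroid markers had median log2 fold changes of -0.07, -0.01, 0.08, 0.20, -0.14 and 0.14. The lowest median was that of neutrophil markers. The 5 neutrophil markers summed to 0.816 to 4.40 CPM in ghrelin livers and 3.76 to 9.33 CPM in PBS livers; none was at 0 in all libraries, and the 3 tested (S100a8, S100a9, Retnlg) had a median log2 fold change of -0.99 with no call. Their part in the snoRNA values was not tested. In bulk tissue, fewer cells of a type and less RNA per cell cannot be told apart. The genes most like each class over the 12 libraries, by Pearson's r of log2 CPM with the class sum, were Rpl14 (0.90), Gart, Rnpepl1, U1 and Kdm4a (0.88) for H/ACA members and Eef1d (0.90), Rpl14 (0.88), Spryd3, Pnp and Yars2 (0.86) for C/D members.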

How the data were processed

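The authors deposited raw read counts per gene for 12 libraries, with whole numbers and no normalization. Per the labels' protocols, total RNA was depleted of ribosomal RNA and made into libraries with a stranded kit, with no step described that selects small RNAs. STAR 2.4.0i and the build mm10 are named in the submitters' processing notes. How reads were counted, with which annotation and strand setting, and what became of reads with several matches is not given in the sources at hand, so near copies and overlapping genes are uncertain. Members, lists and tests were chosen with earlier results of these data known.

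Counts were filtered with filterByExpr (minimum count 10, minimum total 15), scaled by TMM and tested with edgeR 4.0.16 (R 4.3.3; quasi-likelihood test, two-sided, adjusted p under 0.05 over all 14170 genes). CPM values are TMM-scaled. The class sums take all members, also those not tested. Positions, hosts, boxes and lengths came from GENCODE M21. On simulated counts of the same size (14053 genes), 46% of genes changed by 0.5 on the log2 scale and 81.6% of those changed by 1 were recovered. The changed genes were drawn from the whole table, and recovery among snoRNAs was not measured. Members had larger SEs (median 0.17 in H/ACA and 0.14 in C/D) than all tested genes (0.11). Alternatives used limma 3.58.1 and DESeq2 1.42.0. Named members were, per class, the 8 highest by CPM, the 5 highest and 5 lowest folds, the 5 smallest p, those at the count threshold, and their families and hosts; of these, those that carry a comparison are printed, and members of one host or family were added after their values were seen. The labels number the samples of a group without stating that each is a separate mouse, so p-values measure the spread between these samples. No 2 libraries of a group agreed within sampling noise.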

Additional observations from a re-analysis of the deposited data

Results flagged for a closer look

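Among 94 groups of 6 values examined for one library far from the rest, 1 stood out, where chance gives about 1 in 20. SNORD19B (Gm24916), a C/D member in a retained intron of Gnl3, had 0.365 CPM in PBS 6, while the next lowest PBS liver had 0.786 CPM. The gap was 0.655 of the whole range of the PBS group, above the critical value of Dixon's test for 6 samples.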

How the results depend on the processing

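The count of called H/ACA members was 0 under all 22 alternatives, and that of C/D members was 0 under all but the DESeq2 test, which called 1 (Snord118). Over the whole table, 15 genes were called, against 63 without the low-count filter, 9 with robust estimation, 58 with the replicate block and 202 with DESeq2. Leaving out one library gave 0 to 32 calls: leaving out ghrelin 1 or ghrelin 3 left 0 (1675 and 1536 genes at an unadjusted p under 0.05), PBS 3 left 5, ghrelin 6 left 6 and ghrelin 2 left 9, while omission of PBS 6 gave 23, of PBS 5 gave 24 and of ghrelin 4 gave 32. Same-numbered libraries correlated at -0.081 to 0.272 and 3 of 6 matched best with their own number, which does not meet the requirement that every pair exceed 0.1, and no label says that numbers pair the animals; the values neither show nor exclude a pairing. The median level of H/ACA over that of C/D members was 0.358 per kb and 0.524 without division by length. Of 885 alternative log2 fold changes of 41 named members, 846 kept sign and side, 1 passed the threshold, and 38, in 6 members with values near 0, changed sign: SNORA48 (-0.0011 without the filter), SNORA53 (-0.0039 without the filter, -0.0051 with limma-voom), SNORD14 (0.0119 with upper quartile scaling, 0.0012 at a minimum count of 50, 0.0049 with the replicate block, 0.0074 with limma-voom) and Snord35a (-0.0043 without the filter, -0.0132 with the block, -0.0145 with limma-voom). With one library left out, the ranges were -0.0219 to 0.048 in SNORA48, -0.0417 to 0.0641 in SNORA53, -0.0093 to 0.1339 in Snord17, -0.0732 to 0.0695 in SNORD14, -0.0661 to 0.096 in Snord14e and -0.0639 to 0.0713 in Snord35a. The cause of these shifts was not tested. Depth limits the low members most.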

Other observations

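The 21 rows of the SNORD113 family, C/D snoRNAs of the imprinted Dlk1-Dio3 region, were all below 100 counts and summed to 45 counts over the 12 libraries, with 8 in the highest row and 7 rows at 0. The SNORA40 family had 22 rows below 100 counts and 1 member.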
